A study of Nannochloropsis oceanica strain IMET1 with 6 samples.

Results

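The regions described here are pairs of 1-kb bins on different chromosomes (trans-interactions) that were listed as significant in Hi-C of the marine microalga *Nannochloropsis oceanica* although neither bin had a usable bias factor. Members were chosen by the deposited values themselves: a trans bin pair was taken when its bias factor was given as -1, unless both bins lay on chromosomes 3, 9 and 15 or both lay within 20 kb of a chromosome end. The rule found 953 of 2203 listed trans bin pairs, of which 68 came from the 587 of C0, 4 from the 98 of N1 and 881 from the 1518 of N2. They joined 123, 8 and 686 different bins. Being listed and lacking a factor are what selected them, so the contact counts below are a description and carry no test.

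All cells were of strain IMET1, grown in f/2 medium under continuous light. C0 cells were nitrogen-replete (NR), and N1 and N2 cells had been under nitrogen deprivation (ND) for 1 and 2 days. By the study's methods, the culture harvested as C0 grew under stronger light than the ND cultures. The ND cells had also been rinsed and resuspended in nitrogen-free medium, so light and handling differed along with nitrogen. The labels give 2 Hi-C libraries per group, but each list pooled them, so the 3 groups are 1 list each, no spread between replicates could be computed, and no difference between groups was tested. Intervals are 95% exact Poisson or Clopper-Pearson intervals and cover counting error only.

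Hi-C joins DNA ends that lie near each other in the nucleus and counts the joined fragments between every pair of bins. Bins differ in how easily they are cut, joined, sequenced and mapped, and matrix balancing gives each bin a bias factor, high for bins that collect many contacts and low for bins that collect few. Contacts between chromosomes are sparse, so a caller compares each pair with the small count that the average pair and the 2 factors predict. A factor beyond the limits the caller accepts is set to -1, and such a bin is usually kept out of the calls because its expected count is not known.

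The limits were taken here as 0.5 and 2, because usable factors ran from 0.501 to 2.00 in C0 cells, from 0.500 to 1.99 after 1 day and from 0.501 to 2.00 after 2 days of ND. The lists do not state what -1 means, and on which side of these limits a bin lay is not known. The value -1 never stood beside a usable factor. It was given for both bins of 198 trans pairs at C0, 5 at N1 and 1262 at N2, and for no bin of the 4456, 948 and 5042 cis-interactions. The expected count behind each deposited p-value was recovered from the Poisson distribution. For every trans pair it equaled 1 constant per group times the product of the 2 deposited factors, to within 0.000144% of the constant. The constant, which is the expected count of an average trans pair, was 0.0426 contacts in the C0 list, 0.0137 in the N1 list and 0.0293 in the N2 list, and it served as the measure of depth. Since -1 times -1 is 1, each pair without factors had been tested as if both of its bins were average.

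This fixed the lowest count at which such a pair could be listed. A pair with 4 contacts had a p-value of 1.33e-07 at C0, where the largest p-value that passed the q-value threshold of 0.01 was 1.09e-07. The C0 pairs without factors therefore started at 5 contacts. At N2 the same 4 contacts gave 2.98e-08 against a largest p-value of 1.42e-07, and at N1 1.44e-09 against 2.26e-08. Pairs without factors therefore started at 4 in both groups. Of all bin pairs tested, 0.00109% were listed at C0, 0.000226% at N1 and 0.00142% at N2, and the rule drew on these listings.

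With counting error, C0 had 68 members (52.8 to 86.2), N1 had 4 (1.09 to 10.2) and N2 had 881 (824 to 941). Of the trans pairs that remained after the same exclusions, those without factors made up 43.3% of 157 in the C0 list (35.4% to 51.4%), 4.40% of 91 in the N1 list (1.21% to 10.9%) and 83.4% of 1056 in the N2 list (81.0% to 85.6%). Pairs with usable factors numbered 89, 87 and 175 under those exclusions, so the N2 list was dominated by pairs without factors and the N1 list by pairs with them.

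Counts per pair were small and sat at the floor. At C0, 60 of the 68 pairs had 5 contacts, 7 had 6 and 1 had 13. At N1, 2 pairs had 4 contacts and 2 had 5. At N2, 750 of the 881 pairs, or 85.1% (82.6% to 87.4%), had 4 contacts, 98 had 5, 21 had 6, 9 had 7, and 1 each had 8, 10 and 12. A pair at the floor held 117 times the expected count of an average pair in C0 cells, and 293 and 137 times that count after 1 and 2 days of ND. The pairs with usable factors had a median of 4 contacts in each group, and their highest counts were 10, 18 and 37 in C0, N1 and N2.

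**Figure D1:**
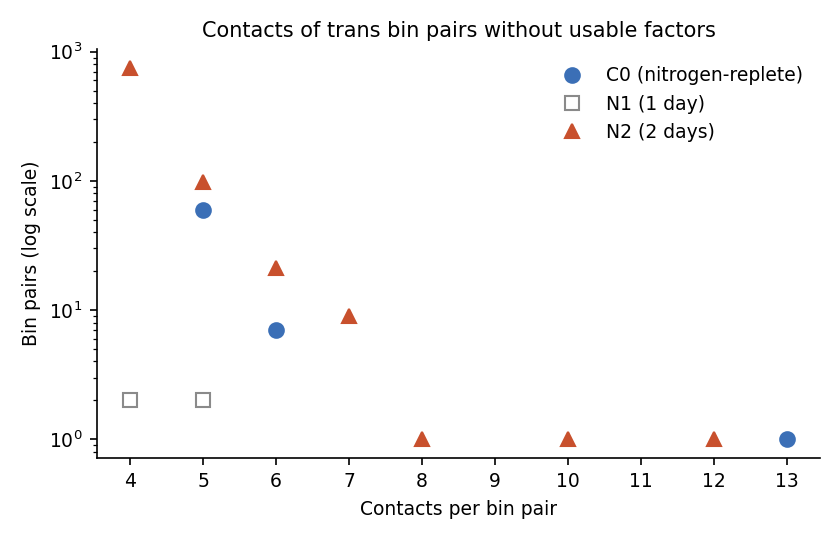
Number of bin pairs without usable factors (vertical axis, log scale) at each contact count (horizontal axis, contacts per bin pair) in C0, N1 and N2, with 1 pooled list per group. Pairs stand mostly at the lowest count at which such pairs were listed, with 60 of 68 at 5 contacts at C0 and 750 of 881 at 4 contacts at N2. Single pairs reach 13 contacts at C0 and 12 at N2.

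The lists differ in floor and depth. Members with 5 contacts or more numbered 68, 2 and 131 in C0, N1 and N2. When contacts were thinned, by calculation, to the lower depth of N2, 12.9 of the C0 pairs would be expected to keep 5 contacts or more, beside the 131 at N2. At the depth of N1, 0.716 of the C0 pairs and 7.04 of the N2 pairs would be expected to keep that many, beside 2 pairs at N1. At 4 contacts or more and the depth of N1, 62.3 of the N2 pairs would be expected, beside 4 at N1. Thinning matched 1 quantity, the expected count of an average trans pair, and its values are expectations from 1 list per group. The counts also depend on what the factors would have been, which the lists do not give. If each bin without a factor is given 2, the upper limit, the expected count rises to 0.170, 0.0547 and 0.117 contacts in C0, N1 and N2, and 8, 2 and 33 of the members stay below a q-value of 0.01. For bins whose factor lay above 2, these are upper limits. With 0.5, the lower limit, all 68, 4 and 881 stay.

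Within the rule, the bins did not gather in a few places. The rule had left out 95 C0 and 317 N2 pairs without factors among chromosomes 3, 9 and 15, on 63 and 128 bins. It also left out 35 and 64 such pairs between chromosome ends. When member bins of any group no more than 5 kb apart were joined, the 747 distinct bins formed 644 clusters, of which 560 were 1 bin alone and the largest held 4 bins. The 10 leading clusters took 16.2% of the bin ends at C0 and 10.9% at N2, where each pair gives 2 bin ends. At 5 contacts or more the N2 share was 23.3%, above that of C0, so the order of the groups turned with the floor. Neighboring member bins on a chromosome were a median of 118 kb apart at C0 and 28.0 kb apart at N2. At N2 all 30 chromosomes had member bins, from 8.52 per Mb on chromosome 23 to 32.0 per Mb on chromosome 5, with 22.1 per Mb over the genome. At C0 the density was 3.97 per Mb, the highest was 8.23 per Mb on chromosome 19, and chromosome 15 had no member bin. Bins such as chr15:594001-595000 did lack a factor at C0, in pairs that the rule left out.

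Cut into 5 equal parts from one end to the other, the chromosomes held 109, 157, 143, 169 and 108 of the N2 bins in these parts, and 18, 20, 21, 38 and 26 of the C0 bins. The median distance to the nearer chromosome end was 309 kb at N2 and 307 kb at C0. Bins within 50 kb of an end made up 8.16% of the N2 bins and 14.6% of the C0 bins, and such stretches make up 9.69% of the genome. The rule left out pairs with both bins within 20 kb of an end, which keeps these shares low. On either side of that limit, the nearest members at N2 were chr16:21001-22000 with chr28:574001-575000, 7 contacts, and chr3:21001-22000 with the same chromosome 28 bin, 5 contacts, and chr9:15001-16000 with chr23:682001-683000, 4 contacts, whose farther bins lay 21.5 kb from an end. The nearest pairs left out at N2 had their farther bins at 18.5 kb and included, with 4 contacts, chr14:982001-983000 with chr26:17001-18000.

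The clusters that led were mostly single bins with many partners. The first, chr26:622001-624000, had 2 bins, 30 bin ends at N2 and 2 at C0. It was followed by chr12:868001-869000 with 25 and 2, chr1:212001-213000 with 23 and 0, and chr12:135001-142000 with 21 and 1. The next 4 were single bins, chr2:1063001-1064000, chr3:118001-119000, chr22:549001-550000 and chr7:389001-390000, with 16, 16, 17 and 16 bin ends at N2 and no more than 1 at C0. The last were chr3:88001-93000 with 14 and 0 and chr9:189001-195000 with 13 and 1. None of the 10 had a bin end at N1.

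The 1-kb bins on either side of a member, where listed, mostly had a factor, as did listed bins at large. Over all listed bins, 5220 had a usable factor and 759 had none at N2, and 4976 and 200 at C0. Of the 1372 adjacent bins at N2, 411 were listed with a usable factor, median 1.18 (quartiles 0.925 and 1.55), and 75 were listed without one. At C0, 63 of 246 adjacent bins were listed with a usable factor, median 1.15, and 2 without. Over all bins listed with a usable factor the median was 1.09 at N2 and 1.03 at C0. The other adjacent bins, more than those listed, were in no listed pair, so their factors are not known here.

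Partners per bin were counted among the members of each group, so partners in pairs that the rule left out do not count. With those included, the member bin chr3:1042001-1043000 had 17 partners at C0, beside 1 among the members. The member bin chr3:1037001-1038000 had 33 at N2, beside 2. At C0, 111 of the 123 bins had 1 partner, 11 had 2, and chr20:581001-582000 had the most, with 3. All 8 bins at N1 had 1 partner. At N2, 338 of 686 bins had 1 partner, 348 had 2 or more, 100 had 5 or more and 21, on 12 chromosomes, had 10 or more. Of the 881 pairs, 278 involved at least 1 of those 21 bins. With N2 held to the C0 floor of 5 contacts, 119 of 169 bins, or 70.4%, had 1 partner and the most was 9, beside 90.2% and 3 at C0. In C0, N1 and N2, no bin had more than 4, 2 and 3 partners in pairs with usable factors under the same exclusions. Many partners were not particular to the members among pairs without factors. In such pairs among chromosomes 3, 9 and 15, which the rule left out, a bin had up to 16 partners in the C0 list and 31 in the N2 list. Left-out pairs between chromosome ends reached 7 and 12. Members reached 3 and 25, fewer than either left-out part in the C0 list and between them in the N2 list.

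**Figure D2:**
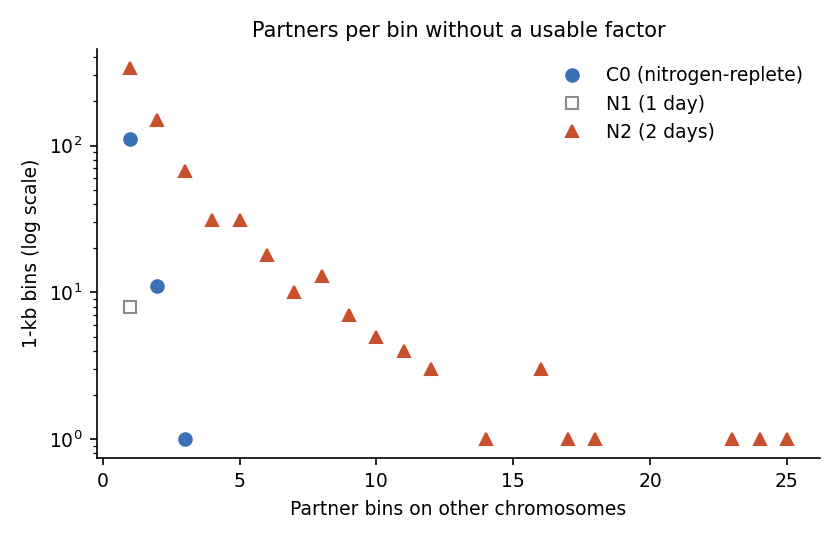
Number of 1-kb bins (vertical axis, log scale) by how many partner bins on other chromosomes each had (horizontal axis) in C0, N1 and N2. Only partners among the members are counted. No bin at C0 had more than 3 of them, while the N2 bins, whose pairs start at 4 contacts and not 5, run out to 25.

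Among the members, the bin with the most partners at N2 was chr12:868001-869000, which met 25 bins on 16 other chromosomes with 114 contacts in all. It had 2 partners and 10 contacts at C0, where it also lacked a factor. The bin chr26:623001-624000 met 24 bins on 16 chromosomes with 118 contacts at N2, and 2 bins with 11 contacts at C0. It lies 26.5 kb from the end of chromosome 26, and 13 of its 24 partners at N2, and both of its partners at C0, lay within 50 kb of an end of their own chromosome. Over the other N2 pairs, 7.70% of bin ends lay that near an end, wherever their partners lay. This bin gave 13 of the 52 N2 members with both bins within 50 kb of an end. The trait was not particular to it. Among other N2 member bins within 50 kb of an end, chr7:1309001-1310000 had 9 of 9 partners that near an end and chr28:574001-575000 had 6 of 9. The bin chr23:682001-683000 had 4 of 8, and chr14:982001-983000 had 3 of 8.

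The other leading bins lay inside their chromosomes and met inner bins. The bin chr1:212001-213000 met 23 bins on 14 chromosomes with 102 contacts at N2 and was not listed at C0. The bin chr12:135001-136000 met 18 bins with 74 contacts, and chr22:549001-550000 met 17 with 74. The 3 bins chr2:1063001-1064000, chr3:118001-119000 and chr7:389001-390000 met 16 each, with 71, 70 and 72 contacts. No more than 1 partner of any of these 6 bins lay within 50 kb of a chromosome end. At C0, chr12:135001-136000, chr2:1063001-1064000 and chr3:118001-119000 had 1 partner each, and the remaining 3 were not listed.

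The N2 pairs formed a large network at their own floor of 4 contacts. Taking pairs as links, 603 of the 686 N2 bins, or 87.9%, belonged to 1 connected network with 837 of the 881 pairs, and the next network held 4 bins. At C0 the 123 bins fell into 55 networks, the largest of 6 bins. At the C0 floor of 5 contacts, the 169 N2 bins fell into 40 networks, of which the largest held 37 bins, or 21.9%. With all N2 pairs, the network closed into 17 triangles, and there was no triangle at C0 or, at 5 contacts or more, at N2. Of the N2 pairs, 21 linked bins that both had 10 or more partners, and 4 linked bins that both had 16 or more. Those 4 were chr1:212001-213000 with chr22:549001-550000 and chr7:389001-390000 with chr12:868001-869000, 7 contacts each, chr2:1063001-1064000 with chr7:389001-390000, 6 contacts, and chr12:135001-136000 with chr22:549001-550000, 4 contacts.

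Most pairs of chromosomes took part. At N2, members joined 314 of the 432 chromosome pairs that the rule allowed, with a median of 2 bin pairs per chromosome pair. Chromosome 2 with 9 and chromosome 2 with 12 had 13 each, chromosome 2 with 7 had 12, and chromosome 1 with 2 and chromosome 2 with 5 had 11 each. At C0, 61 chromosome pairs took part and 55 of them held 1 bin pair. The most was 3, between chromosomes 2 and 3, and 1 with 19, 3 with 8, 9 with 18, 12 with 19 and 14 with 22 had 2 each. Chromosome 3, 9 or 15 was 1 side of 17 C0 pairs, 1 N1 pair and 213 N2 pairs, which is 25.0%, 25.0% and 24.2%. The share that chromosome length alone would give was not computed, so these values do not show that the 3 chromosomes took part more than others. Of the member bins, 13 at C0 and 87 at N2 were also bins of pairs without factors that the rule left out.

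**Figure D3:**
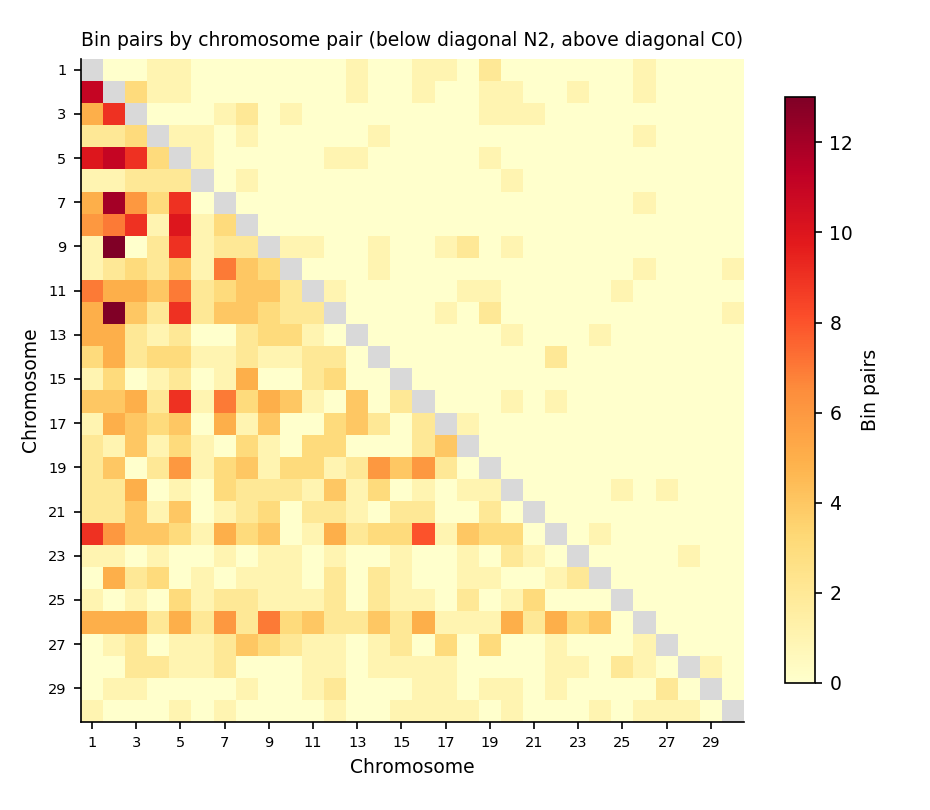
Number of bin pairs without usable factors for each pair of chromosomes (color scale, bin pairs), with N2 below the diagonal and C0 above it. At N2 the pairs spread over 314 of the 432 chromosome pairs that the rule allowed, with 13 at most, and at C0 over 61, with 3 at most.

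Few pairs stood far above the floor. At N2 the highest count was 12 contacts between chr26:623001-624000 and chr28:574001-575000, 410 times the expected count, and the pair was not listed at C0 or N1. The chromosome 28 bin lies 10.5 kb from an end and had 9 partners. Next was chr9:750001-751000 with chr18:66001-67000, 10 contacts, and then chr3:88001-89000 with chr12:975001-976000, 8 contacts. The 9 pairs with 7 contacts held 239 times the expected count. They included chr2:1072001-1073000 with chr8:779001-780000, chr3:1104001-1105000 with chr5:511001-512000, chr4:1262001-1263000 with chr11:539001-540000, chr8:1138001-1139000 with chr12:868001-869000, chr19:170001-171000 with chr27:152001-153000, and chr23:682001-683000 with chr26:623001-624000.

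At C0 the highest count was 13 contacts, 305 times the expected count, again between chr9:750001-751000 and chr18:66001-67000. In neither group had these 2 bins any other partner among the members. The 7 C0 pairs with 6 contacts were not listed at N2. Among them were chr2:261001-262000 with chr3:1076001-1077000, chr10:464001-465000 with chr14:542001-543000, and chr4:18001-19000 with chr26:623001-624000. The 4 N1 pairs were chr16:958001-959000 with chr22:132001-133000 and chr6:130001-131000 with chr24:580001-581000, 5 contacts each, and chr9:206001-207000 with chr10:1194001-1195000 and chr16:154001-155000 with chr17:393001-394000, 4 contacts each.

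Pairs seldom came back in a second group. The pair between chromosomes 9 and 18 was the only member of both C0 and N2, 1 of 68 and 1 of 881, with 13 contacts at C0 and 10 at N2. Against the depth of each list these are 305 and 342 times the expected count. The pair of chr16:958001-959000 and chr22:132001-133000 was the only member of both N1 and N2, 1 of 4 and 1 of 881, with 5 contacts at N1 and 6 at N2, or 366 and 205 times the expected count. No member was shared by C0 and N1. Allowing both bins to shift by 1 or by 5 bins added none. For all trans pairs, 9.03% of those at C0 and 35.7% of those at N1 were also listed in trans at N2. Among pairs with usable factors under the same exclusions, 11 of 89 C0 pairs and 33 of 87 N1 pairs were listed at N2 too.

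The bins came back where the pairs did not. Of the 123 C0 bins, 72, or 58.5% (49.3% to 67.3%), were also listed without a factor at N2, and 68 of them were member bins there. By contrast, 1.41% of the bins listed with a usable factor at C0 were listed without one at N2. Both bins of 29 C0 pairs lacked a factor at N2 as well, yet 1 of these 29 pairs was listed there. Conversely, both bins of 44 N2 pairs lacked a factor at C0, and 1 of the 44 was listed there. Of the 12 C0 bins with 2 or 3 partners, 10 were listed without a factor at N2. Among the 686 N2 bins, 101, or 14.7% (12.2% to 17.6%), were listed without a factor at C0, against 0.402% of the bins listed with a usable factor at N2. A bin is seen only when one of its pairs is listed, so these shares are lower bounds on how many bins lacked a factor in both groups.

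N2 bins that also lacked a factor at C0 had more partners at N2 than the rest. Their mean was 3.87 partners (median 2, most 25), while the 65 bins with a usable factor at C0 had a mean of 2.82 (median 2, most 14) and the 520 bins not listed at C0 a mean of 2.28 (median 1, most 23). Of the 21 bins with 10 or more partners, 7 lacked a factor at C0, 2 had one and 12 were not listed there. Since these bins share pairs and lists, the means are a description.

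A usable factor in another group was found for 17 of the 123 C0 bins, 1 of the 8 N1 bins and 136 of the 686 N2 bins, which is 13.8% (8.26% to 21.2%), 12.5% (0.316% to 52.7%) and 19.8% (16.9% to 23.0%). For bins with a usable factor at C0 the matching share at N2 alone was 56.7%, and for bins with a usable factor at N2 the share at C0 was 54.1%. Among the members, 9 of the C0 bins had a usable factor at N2, 7.32%, and 65 of the N2 bins had one at C0, 9.48%. These lower shares are not a like comparison. No bin without a factor was in a listed cis-interaction of its own group, and factors in another group were known mostly through cis-interactions. The way the bins were picked thus lowers the members' shares, by an amount that was not tested. At N1, 10 of the C0 bins and 93 of the N2 bins had a usable factor, and 113 and 591 were not listed.

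Where a factor was known, it was mostly high, among bins listed only because a pair reached the floor of 4 or 5 contacts. The 65 N2 bins had factors at C0 with a median of 1.83 (quartiles 1.73 and 1.94, from 0.519 to 2.00), and 50 of them, 76.9%, were above 1.7. Of all 4976 bins listed with a usable factor at C0, 8.98% were above 1.7. The 9 C0 bins had factors at N2 from 1.60 to 1.99, with a median of 1.82, and 8 of them were above 1.7, beside 11.9% of all usable bins at N2. At N1 the factors were lower: the median was 1.45 for the 93 N2 bins and 1.40 for the 10 C0 bins, against 0.850 for all usable bins at N1. In the 22 N2 bins that had a usable factor in both of the other groups, the median was 1.83 at C0 and 1.21 at N1, and the C0 value was the higher in all 22.

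**Figure D4:**
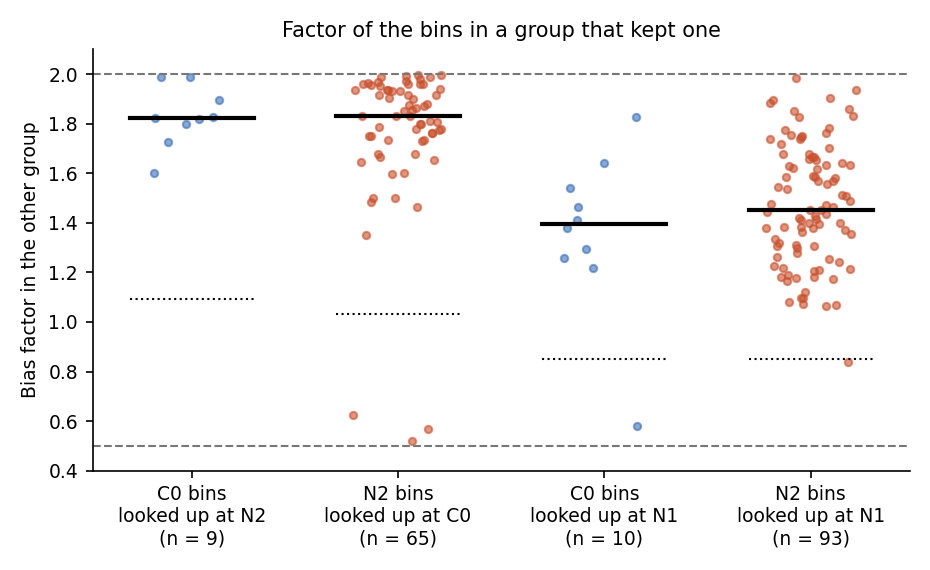
Bias factor in another group (vertical axis, no unit) of the C0 bins and N2 bins that had a usable one there. Points are bins, thick lines the medians of 1.82, 1.83, 1.40 and 1.45, dotted lines the medians of all usable bins of the group looked up, and dashed lines the limits of 0.5 and 2. Most points lie above the dotted lines, and at C0 and N2 they crowd below the upper limit.

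The exceptions were few. In the N2 list 3 bins had factors at C0 near the lower limit, chr3:1542001-1543000 at 0.519, chr11:632001-633000 at 0.568 and chr4:1488001-1489000 at 0.626, and each had 1 partner at N2. The C0 bin chr8:19001-20000 had a factor of 0.579 at N1. The 1 N1 bin with a usable factor elsewhere had 1.04 at N2.

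Read the other way, the share of bins that were members at N2 was highest among those with high factors in another group. Of bins with a C0 factor from 1.75 to 2, 46 of 352, or 13.1% (9.73% to 17.0%), were N2 members, of those from 1.5 to 1.75, 2.28% (1.18% to 3.94%), and of those from 1 to 1.25, 0 of 1002, which allows up to 0.367%. By the N1 factor, the share went from 1 of 517 bins between 0.75 and 1 to 6.74% (4.10% to 10.3%) between 1 and 1.25 and 32.6% (19.1% to 48.5%) between 1.75 and 2. For C0 members by their N2 factor, 7 of 517 bins from 1.75 to 2, or 1.35% (0.546% to 2.77%), were members, and none below 1.5. The factor groups of this comparison were set by a different list from the one that chose the members. The same strain, genome and mapping lie behind both, and the comparison is not independent of the rule. A member had to reach at least 5 contacts at C0 or 4 at N1 and N2, at the expected count of an average pair. Bins that collect many contacts reach this more easily, and the selection may have favored bins with high factors elsewhere. Whether and how much it did so was not tested.

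**Figure D5:**
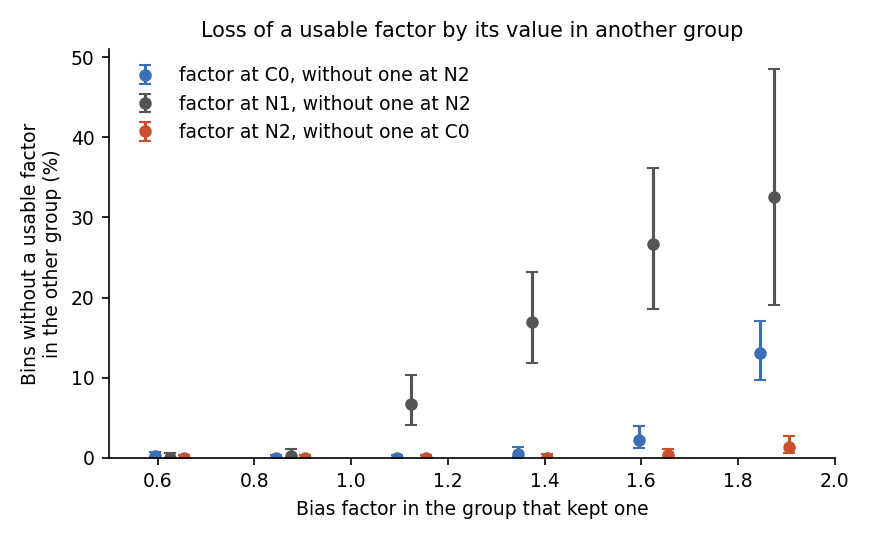
Share of bins, in percent, that were bins of the described pairs without a usable factor in 1 group (vertical axis) by the factor they had in another group (horizontal axis, classes of 0.25). Only bins of the described pairs are counted. The share is not that of all bins that lacked or lost a usable factor. Bars are 95% Clopper-Pearson intervals for counting error. The share at N2 is 13.1% in the highest class of C0 factors and 32.6% in the highest class of N1 factors, and the share at C0 is 1.35% in the highest class of N2 factors.

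Adjacent bins had lower factors than the member in most cases where both were listed. For 19 of the 65 N2 bins with a usable C0 factor, at least 1 adjacent bin was listed at C0 with a usable factor too. The bins themselves had a median of 1.88 there and the mean of their adjacent bins a median of 1.07, and all 19 stood above their neighbors. At N1 the medians were 1.67 for 18 N2 bins and 0.875 for their neighbors, again with all 18 above. Of the 5 C0 bins that could be compared at N2, all 5 stood above theirs, with medians of 1.80 and 0.789. The 1 C0 bin that could be compared at N1 stood below, at 0.579 against 0.700.

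The N2 bins with the most partners among those with a usable factor elsewhere were chr26:369001-370000, which had 14 partners at N2 and factors of 1.75 at C0 and 1.47 at N1, and chr3:88001-89000, with 12 partners and factors of 1.60 and 1.21. They were followed by chr7:1309001-1310000 with 9 partners, a factor of 1.46 at N1 and none usable at C0, and chr8:779001-780000 with 9 partners and a factor of 1.64 at C0. The next 4 had 7 or 8 partners. Among them chr7:450001-451000 had 1.46 at C0 and 0.837 at N1, chr7:456001-457000 had 1.75 at N1, chr19:170001-171000 had 1.94 at N1, and chr3:608001-609000 had 1.80 at C0. Last came chr14:143001-144000, with 7 partners and 1.31 at N1, and chr10:1235001-1236000, with 6 and 1.85 at N1.

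For a few pairs both factors were known from another group, and the expected count was computed with them. These factors need not hold in the pair's own group, where neither bin had a usable one. The N2 pair of chr7:450001-451000 and chr17:384001-385000 had a product of 2.57 by its C0 factors and 1.06 by its N1 factors. The products of the C0 factors for 6 N2 pairs ran from 2.57 to 3.83, and those of the N1 factors for 14 N2 pairs from 1.06 to 3.14 with a median of 2.36, in place of the 1 that had been used. The pair of chr3:88001-89000 and chr12:975001-976000, with 8 contacts at N2, stood 273 times above the expected count at a product of 1 and 99.0 times above it at its C0 product of 2.76. The C0 pair of chr11:1142001-1143000 and chr19:23001-24000, with 5 contacts, stood 117 times above it at 1 and 32.4 times at its N2 product of 3.62.

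Taking part in cis-interactions was mostly how the factors in another group became known. Of the N2 bins with a usable factor, 63 of 65 at C0 and 92 of 93 at N1 were in listed cis-interactions. The shares of cis-interactions given here are therefore a description, and no matching share was computed for other bins. At C0, 160 of the 4456 cis-interactions, 3.59%, involved a bin that was a member at N2, and at N1 101 of 948 did, 10.7%. Since no cis-interaction was listed with a factor of -1, none of these was listed at N2, and their cis counts at N2 are not known here. They included the C0 interaction of chr26:367001-368000 with chr26:369001-370000, 193 contacts, that of chr1:89001-90000 with chr1:91001-92000, 168 contacts, and that of chr15:421001-422000 with chr15:423001-424000, 167 contacts. At N1 the highest was chr3:306001-307000 with chr3:308001-309000, 76 contacts. In the other direction, 22 of the 5042 N2 cis-interactions, 0.436%, involved a C0 member bin, up to the 147 contacts of chr5:1214001-1215000 with chr5:1216001-1217000.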

How the data were processed

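Hi-C libraries of C0, N1 and N2 cells, 2 per group by the labels, were represented by 6 deposited lists of significant interactions, cis and trans, which the authors made after pooling replicates. By the study's methods, reads were mapped to version V2 of the IMET1 genome, and Fit-Hi-C was used for the calls. The methods name a larger bin for that step than the 1 kb of the deposited lists, and the difference could not be settled here. HiC-Pro and edgeR are named in the submitters' processing notes. Each deposited row gives 2 bin midpoints, a contact count, a p-value, a q-value and 2 bias factors, treated here as a score without unit. Bin coordinates are those of the authors' genome, for which no sequence or annotation was used here, so bins are not assigned to genes.

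Expected counts were recovered by inverting the Poisson tail, the number of tests by dividing the q-value of the leading pair by its p-value, and thinned counts from binomial probabilities (Python 3.11.15, numpy 2.4.6, pandas 2.3.3, scipy 1.17.1, networkx 3.6.1). The recovery of expected counts and the thinning were tested on simulated data, and the recovery of the number of tests was not. Named were the 5 pairs with the most contacts and the 5 bins with the most partners per group (ties up to 10), the 5 leading chromosome pairs, the 10 leading clusters, pairs in more than 1 group, and up to 10 bins with a usable factor elsewhere. The 3 bins with low factors, the cis examples, the links among leading bins and the threshold examples were chosen after their values were seen. Members and lists were chosen with earlier results of these data known.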

Additional observations from a re-analysis of the deposited data

How the results depend on the processing

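No paired analysis was possible because replicates were pooled before the lists were made, and for the same reason no replicate could be left out. Widths of 10 or 50 kb for a chromosome end, merging neighboring pairs, and leaving out the bin with the most partners or the leading chromosome pair moved no count of pairs or bins by more than 1.5 times; with ends of 10 kb the median at N1 was 4 contacts, not 4.5. At a q-value below 0.001 or at 5 contacts or more, 131 pairs and 169 bins remained at N2, and at 5 contacts or more 2 pairs and 4 bins at N1, also when thinned to the depth of N1; the C0 counts did not change. Thinned to the depth of N1, 62.3 N2 pairs would be expected to keep 4 contacts, and at least 3.61 C0 pairs, a lower bound since C0 pairs with 4 contacts are not listed. The share of N2 bin ends in the 10 leading clusters was 13.4% with a gap of 20 kb and 23.3% at 5 contacts or more. From trans lists alone, a usable factor in another group was found for 2.44% of C0 and 1.02% of N2 bins, and from cis lists alone for 0% of N1 bins. The following were added after seeing the data. At 5 contacts or more, 0.716 C0 and 7.04 N2 pairs would be expected at the depth of N1, and 12.9 C0 beside 131 N2 pairs at that of N2. With a factor of 2 for each bin without one, 8, 2 and 33 pairs and 16, 4 and 51 bins stayed at C0, N1 and N2. With N2 at 5 contacts or more, its largest network held 37 of 169 bins, not 603 of 686. The 3 lists hold only significant pairs, so a pair or bin that is not listed has no known count, and counts of 4 or 5 contacts leave wide counting error on any single pair.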
